A study of Homo sapiens with 8 samples.

Results

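The genes described here carry glucose into the cell, break it down to pyruvate and lactate, and set where its carbon goes next. They are 33 genes chosen by name: 3 hexokinases, 7 enzymes of upper glycolysis, 4 enzymes that set the level of fructose bisphosphate regulators, 7 enzymes of lower glycolysis, 2 lactate dehydrogenases, 4 glucose and lactate transporters, 4 pyruvate dehydrogenase kinases, and the glycogen and pentose phosphate entry enzymes PGM1 and PGD. All 33 were found in the count table of 58051 genes, and 32 of them were among the 16959 genes with enough reads to be tested. The exception was SLC2A3, which had almost no reads.

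RNA was sequenced from PC3 cells, an established human cell line from a bone metastasis of prostate cancer. The cells carried a lentiviral hairpin against no human gene (shScramble, 4 samples) or the sh2 IER5L hairpin against the immediate early response gene IER5L (shIER5L, 4 samples), and transduced cells of both conditions were selected with puromycin. The labels call the 4 samples of each condition biological replicates, and the study grew them on separate plates. Since the silenced samples all carry the same hairpin, an effect of the loss of IER5L and an effect of this hairpin on other transcripts cannot be told apart here.

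Between 21512128 and 24662190 reads were counted on genes per sample. IER5L itself was at 3.91, 6.51, 5.62 and 3.23 CPM (reads scaled to a common library size by the TMM method) in shScramble and at 2.73, 3.02, 2.04 and 1.32 CPM in shIER5L. It was lower in every silenced sample, with a log2 fold change of -1.08 ± 0.248 (SE, adjusted p = 0.0212, edgeR quasi-likelihood test), but it rested on 29 to 154 reads per sample and its exons overlap an antisense gene, IER5L-AS1. The call for IER5L was lost without shScramble replicate 2 (adjusted p = 0.0937), without shScramble replicate 3 (0.078) or without shIER5L replicate 3 (0.0891). Epithelial markers fitted the label, with KRT18 between 382 and 425 CPM and EPCAM between 25.7 and 30.8 CPM, and KLK2 and KLK3, which PC3 cells are known to lack, were at 0 in all samples. Of the other markers, CD3E was at 0 in all samples, PTPRC, CD68, COL1A1, DCN, VWF and LUM reached at most 0.882 CPM, and PECAM1 was at 7.24 to 10.4 CPM.

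Hexokinases trap glucose in the cell by adding a phosphate. HK1 is the form found in most tissues, and HK2 is the form known for its induction in tumours. The sugar phosphate is then converted, split and oxidised by the enzymes of glycolysis, and the pyruvate that results is either turned into lactate and exported or burnt in mitochondria, a step that the pyruvate dehydrogenase kinases hold back. The question here was whether other genes of the pathway moved with it when IER5L was silenced.

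HK2 fell when IER5L was silenced, and PGK1 was the other gene of the group that passed the test. Of the 32 genes tested, 2 passed an adjusted p of 0.05, and both were lower in shIER5L. That is 2 of 32 beside 3.93% of all genes tested in either direction, and beside 1.46% of all genes called lower. No gene of the group was called higher by the quasi-likelihood test, beside 2.46% of all genes. HK1, HKDC1 and PKM were higher at an unadjusted p under 0.05, DESeq2 and limma voom called none of the 3, and the edgeR likelihood ratio test called HKDC1. DESeq2 called 2 genes of the group beside 7.28% of the 13013 genes to which it gave an adjusted p, limma voom called 2 beside 3.93% of all genes, and the likelihood ratio test called 3 beside 5.09%. Only HK2 met the definition of a differentially expressed gene (DEG) used by the study, an adjusted p under 0.05 and a log2 fold change at or beyond 0.5 in either direction, beside 0.79% of all genes. In all, 5 of the 32 had an unadjusted p under 0.05, and 16.5% of all genes did.

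HK2 was measured at 173, 152, 170 and 175 CPM in the 4 shScramble samples and at 105, 96.5, 105 and 97.9 CPM in the 4 shIER5L samples. The conditions did not overlap, and the lowest shScramble sample stood well above the highest shIER5L sample. Mean HK2 was 168 ± 10.6 CPM in shScramble and 101 ± 4.59 CPM in shIER5L (SD over 4 samples). It fell by 39.7%, with a log2 fold change of -0.73 ± 0.0535 (SE, adjusted p = 9.76e-07, edgeR quasi-likelihood test). HK2 ranked 7 of all genes tested by p. Its exons share 7 bases with the antisense gene HK2-DT, which had 242 to 280 reads in shScramble and 170 to 216 reads in shIER5L. When the test asked whether the change exceeded 0.5 (glmTreat), the adjusted p of HK2 was 0.14, and the 95% interval of its log2 fold change ran from -0.843 to -0.616. That test called 0.0236% of all genes, 4 in number, and none of the group.

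The hairpin is printed here because a heptamer of its sequence, CATCTCA, lies in the 3' UTRs of HK2 and PGK1. The same heptamer lies in the 3' UTR of 18.9% of all tested genes with such a UTR. The listed sequence of the hairpin follows, with positions 11 to 18, counted from the 5' end, in capitals.
sh2 IER5L: gacgcgtccaACATCTCAaac
The capitals hold 2 overlapping heptamers, CATCTCA and ACATCTC. Both had been picked out by an earlier scan of these same samples, so a match to them is a description and no independent evidence. They were searched on the transcript strand only, in the longest annotated 3' UTR of each gene (GENCODE v44, GRCh38).

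HK2 holds CATCTCA at 3 places in its 3' UTR of 2418 bases, at positions 143, 671 and 2292. They are printed with the 7 bases on either side and the heptamer in capitals, all on the plus strand.
HK2 chr2:74891077-74891097: gtctctgCATCTCAttgtaga
HK2 chr2:74891605-74891625: gctgtcgCATCTCAgcggggc
HK2 chr2:74893226-74893246: agcgaatCATCTCAaatcctt
At the last of these the run of bases shared with the hairpin was 9 long, and it was 7 long at the other places.

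The other hexokinases did not fall. HK1 was at 248, 244, 250 and 247 CPM in shScramble and at 273, 266, 259 and 270 CPM in shIER5L. Each shIER5L sample lay above all shScramble samples, yet the difference was small, with a log2 fold change of 0.11 ± 0.0383 (SE) and an adjusted p of 0.141 that did not pass the threshold. HKDC1, a less abundant hexokinase whose gene is the neighbour of HK1 on chromosome 10, was at 6.74, 6.55, 7.47 and 6.9 CPM in shScramble and at 8.91, 9.12, 8.57 and 8.5 CPM in shIER5L. Its conditions did not overlap either, with a log2 fold change of 0.34 ± 0.101 (SE) and an adjusted p of 0.0761 by the quasi-likelihood test. The edgeR likelihood ratio test gave HKDC1 an adjusted p of 0.0485, and with a component of the spread between replicates as a covariate HK1 and HKDC1 passed at 0.0271 and 0.0314, in a fit that called 5 genes of the group beside 11.2% of all genes. Together with HK2 and PGK1, they were the 4 genes of the group without overlap between the conditions, beside 10.9% of all genes.

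**Figure D1:**
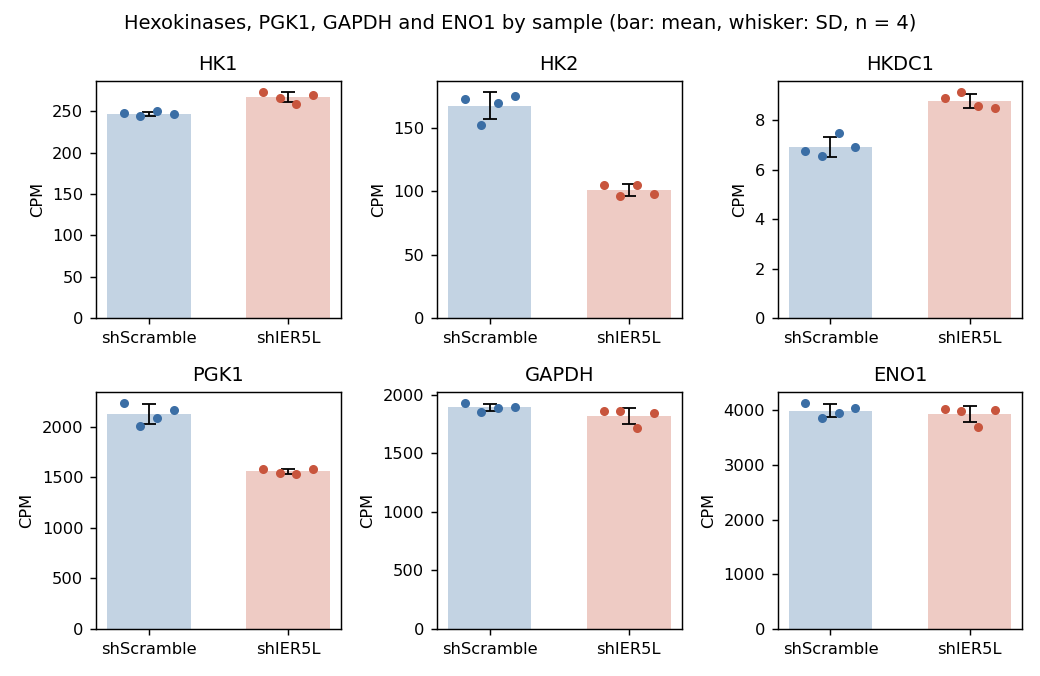
Levels in CPM (linear axes from 0) of 6 genes in the 4 shScramble and 4 shIER5L samples. Points are samples, bars are means and whiskers are SD. HK2 and PGK1 are lower in every shIER5L sample, HK1 and HKDC1 are higher in every shIER5L sample without passing the adjusted threshold, and GAPDH and ENO1 overlap.

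Per length of exon, the hexokinase transcripts summed to 70 ± 2.15 CPM per kb in shScramble and 62.7 ± 1.2 CPM per kb in shIER5L (SD, n = 4 each). HK2 made up 39.5% ± 1.34 of this sum in shScramble and 26.6% ± 1.05 in shIER5L. The share of HK1 was 58.2% ± 1.32 and 70.1% ± 1.02, and that of HKDC1 was 2.32% ± 0.106 and 3.29% ± 0.121. The ranges of the conditions did not overlap for any of the 3 shares. The shares are parts of the same sum, so a fall of HK2 alone raises the others, and they are not separate results. HK1 was the most abundant hexokinase transcript in both conditions and by a wider margin after silencing.

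**Figure D2:**
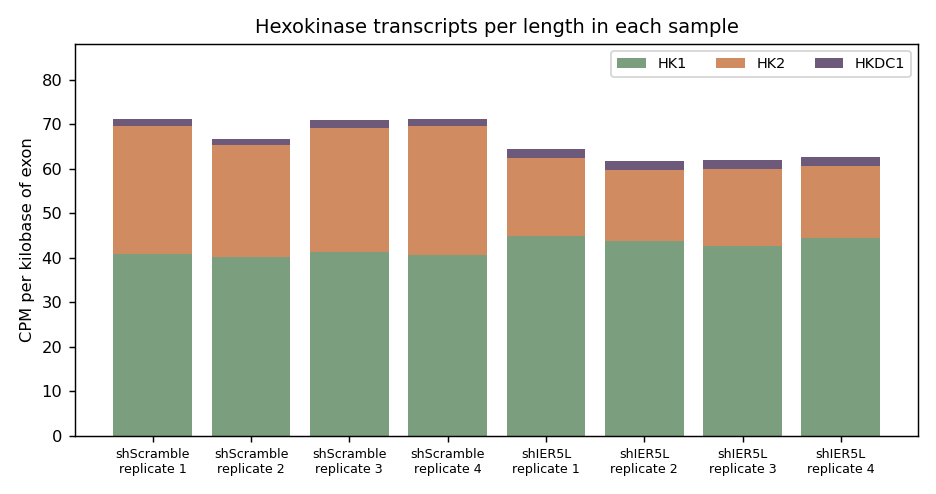
Hexokinase transcripts in each sample as CPM per kilobase of exon (linear axis from 0), stacked for HK1, HK2 and HKDC1. The sum lies between 66.8 and 71.2 in shScramble and between 61.8 and 64.4 in shIER5L, and the HK2 part is smaller in each shIER5L sample.

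The ratio of HK2 to HK1 reads within a sample does not depend on the scaling between samples. It was 0.699, 0.626, 0.679 and 0.711 in shScramble and 0.386, 0.364, 0.406 and 0.363 in shIER5L. The ratio fell to 0.559 of its shScramble level, a difference of -0.84 on the log2 scale (exact permutation test, two-sided, p = 0.0286, adjusted p = 0.0762 over 8 pairs). The smallest p that 4 against 4 samples allow is 0.0286, so 3 pairs at that limit could not reach 0.05 after adjustment over 8. The same p was found for HK2 against GAPDH, with a log2 difference of -0.67, and for HK2 against PGK1, with a log2 difference of -0.28. HK2 thus fell further than PGK1 in each of the 4 silenced samples relative to each shScramble sample.

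PGK1, the phosphoglycerate kinase that yields the first ATP of glycolysis, was the other gene that changed. It was at 2236.7, 2011.1, 2090.3 and 2163.3 CPM in shScramble and at 1580.0, 1545.8, 1529.9 and 1585.8 CPM in shIER5L. The shIER5L samples were close together and all below the shScramble samples. Mean PGK1 was 2125.3 ± 96.8 CPM in shScramble and 1560.4 ± 26.9 CPM in shIER5L (SD over 4 samples). It fell by 26.6%, with a log2 fold change of -0.45 ± 0.0391 (SE, adjusted p = 8.87e-06, edgeR quasi-likelihood test). PGK1 ranked 10 of all genes by p but stayed short of the fold change of a DEG. Its pseudogenes held reads amounting to 0.0186% of its own. PGK1 holds CATCTCA at 1 place in its 3' UTR of 3465 bases, printed as above on the plus strand.
PGK1 chrX:78125974-78125994: tgcacagCATCTCAgctcatc

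The other enzymes of lower glycolysis did not pass the test. GAPDH, the dehydrogenase just before PGK1 in the pathway, was at 1930.0, 1851.5, 1890.0 and 1898.4 CPM in shScramble and at 1863.9, 1857.7, 1719.7 and 1844.5 CPM in shIER5L. The conditions overlapped, with a log2 fold change of -0.06 ± 0.0374 (SE, adjusted p = 0.514) and a 95% interval from -0.134 to 0.024. Reads on 65 annotated GAPDH pseudogenes came to 0.435% of the reads of the gene. ENO1, the main enolase, was the most abundant of the 33 genes, at 3993.3 ± 114 CPM in shScramble and 3929.8 ± 154 CPM in shIER5L (SD, n = 4 each). It had a 95% interval of the log2 fold change from -0.105 to 0.058. ENO2 and ENO3, the enolases known from neurons and muscle, had log2 fold changes of 0.03 and -0.06. Without a strand option, reads from exons shared with an antisense gene cannot be told apart. Of the 33 genes, 18 have such a neighbour, and for 8 of them it had over 100 reads in some sample: HK2, TPI1, PFKM (SENP1), PFKFB2 (YOD1), SLC16A1 (SLC16A1-AS1), SLC16A3 (CSNK1D), PGM1 (ITGB3BP) and ENO3 (PFN1, at 2528 to 3424 reads beside 67 to 111 reads on ENO3). The shared bases were 0.115% of the exon bases of HK2, 2.59% of those of ENO3 and 8.62% of those of PFKM. PGK1 has no such neighbour. PGAM1, the phosphoglycerate mutase, had a log2 fold change of -0.07, and reads on its pseudogenes came to 5.38% of its own.

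PKM, the pyruvate kinase, was at 115, 112, 118 and 125 CPM in shScramble and at 133, 119, 121 and 136 CPM in shIER5L. The conditions overlapped, and the log2 fold change of 0.12 ± 0.0546 (SE) had an adjusted p of 0.293. Per length, PKM was at 13.7 CPM per kb in shScramble, while ENO1 was at 1008.9 CPM per kb and GAPDH at 635 CPM per kb. PKM therefore stood far below the enzymes around it in the pathway in this table. The table counts reads per gene, so the splice forms of PKM could not be separated, and per-length levels use all annotated exons of a gene, which lowers them where long exons are rarely used.

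Of the 7 genes of upper glycolysis, none was called by edgeR's quasi-likelihood test, DESeq2 or limma voom, and none had an unadjusted p under 0.05. PFKP passed only with a component of the replicate spread as a covariate (adjusted p = 0.0117). GPI, which converts the product of hexokinase, had a log2 fold change of -0.05 (95% interval -0.226 to 0.134). The phosphofructokinases PFKM, PFKP and PFKL, which catalyse the committed step, had log2 fold changes of -0.01, 0.13 and -0.02, all with overlapping conditions. PFKM was the steadiest of them, at 387 ± 9.97 CPM in shScramble and 384 ± 11.2 CPM in shIER5L (SD, n = 4 each). PFKL varied most among replicates of all tested genes of the group, with a coefficient of variation of 14.6% in shScramble and 23.3% in shIER5L. Per length, PFKM made up 48.3% of the phosphofructokinase transcripts in shScramble and 46.4% in shIER5L, and PFKP 41.7% and 44.1%. The ratio of PFKP to PFKL did not separate the conditions (log2 difference 0.17, exact permutation p = 0.171, adjusted p = 0.229).

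The aldolases split the bisphosphate sugar, and TPI1 interconverts the products. ALDOA made up 98.4% of aldolase transcripts per length in shScramble and 98.6% in shIER5L, and its log2 fold change was -0.01. ALDOC, at only 4.6 ± 0.334 CPM in shScramble and 4.15 ± 0.524 CPM in shIER5L (SD, n = 4 each), had a log2 fold change of -0.15 with a wide 95% interval, from -0.434 to 0.144. TPI1 was at 841 ± 32.9 and 819 ± 32.5 CPM and had a log2 fold change of -0.04.

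The enzymes that make or remove fructose bisphosphate regulators of phosphofructokinase, PFKFB2, PFKFB3, PFKFB4 and TIGAR, had log2 fold changes of -0.06, 0.11, 0.02 and 0.00. PFKFB2 was the most abundant of them, at 90.9 ± 3.71 CPM in shScramble and 87.5 ± 3.15 CPM in shIER5L (SD, n = 4 each). PFKFB3, the form known for its induction in hypoxia and tumours, was at 33.6, 37.1, 37.6 and 37.1 CPM in shScramble and at 42.6, 44.1, 35.9 and 34.4 CPM in shIER5L. The higher shIER5L samples were replicates 1 and 2, and the other 2 lay within the shScramble range.

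Neither lactate dehydrogenase passed the test. LDHA, which favours the making of lactate, was at 2204.8, 1903.8, 1963.9 and 2075.8 CPM in shScramble and at 2010.3, 1933.3, 2048.2 and 1993.9 CPM in shIER5L. The shIER5L values lay inside the shScramble range, with a log2 fold change of -0.03 ± 0.0446 (SE, adjusted p = 0.821) and a 95% interval from -0.124 to 0.066. LDHB, which favours its use, had a log2 fold change of 0.02 and a 95% interval from -0.069 to 0.106. Per length, LDHA made up 47.4% ± 0.698 of both transcripts in shScramble and 46.6% ± 0.633 in shIER5L, and the ratio of their reads did not separate the conditions (exact permutation p = 0.171, adjusted p = 0.229). By reads LDHA was the higher, at a mean of 2037.1 CPM in shScramble beside 1084.4 CPM for LDHB. The exon lengths used were 6210 bases for LDHA and 2983 bases for LDHB.

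SLC2A1, the glucose transporter GLUT1, was at 71, 75, 80.8 and 83.2 CPM in shScramble and at 78.4, 87.6, 75.9 and 69.4 CPM in shIER5L. The ranges overlapped widely, with a log2 fold change of 0.01 ± 0.07 (SE, adjusted p = 0.98) and a 95% interval from -0.142 to 0.155. SLC2A3, the glucose transporter GLUT3, had 2 reads in shScramble replicate 3 and 0 reads in the other 7 samples, where a count of 0 allows up to 3 reads for counting error, so that no fold change was formed. Its annotated pseudogenes held 21 to 58 reads per sample, more than the gene itself, and a read with several places was counted at its primary place. SLC16A1 and SLC16A3, the lactate exporters MCT1 and MCT4, had log2 fold changes of 0.05 and -0.08. SLC16A3 was variable, from 192 to 299 CPM in shIER5L, and its ratio to SLC16A1 did not separate the conditions (exact permutation p = 0.429, adjusted p = 0.49).

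The pyruvate dehydrogenase kinases PDK1, PDK2, PDK3 and PDK4 had log2 fold changes of -0.08, -0.09, 0.07 and 0.08, and none passed. Per length, PDK3 gave 50.1% of their transcripts in shScramble and 51.7% in shIER5L, and PDK1, a known target of hypoxia signalling, gave 22.6% and 21.1%. By reads the order was reversed, with PDK1 at 41.1 CPM and PDK3 at 16.5 CPM in shScramble. The exon lengths used were 14883 bases for PDK1 and 2695 bases for PDK3, so which is the more abundant depends on the annotated lengths. PGM1, at the entry to glycogen, was at 145 ± 7.68 and 138 ± 1.2 CPM, and PGD, in the oxidative pentose phosphate branch, was at 250 ± 6.76 and 238 ± 7.08 CPM (SD, n = 4 each). Their log2 fold changes were both -0.07, with adjusted p of 0.519 and 0.47.

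**Figure D3:**
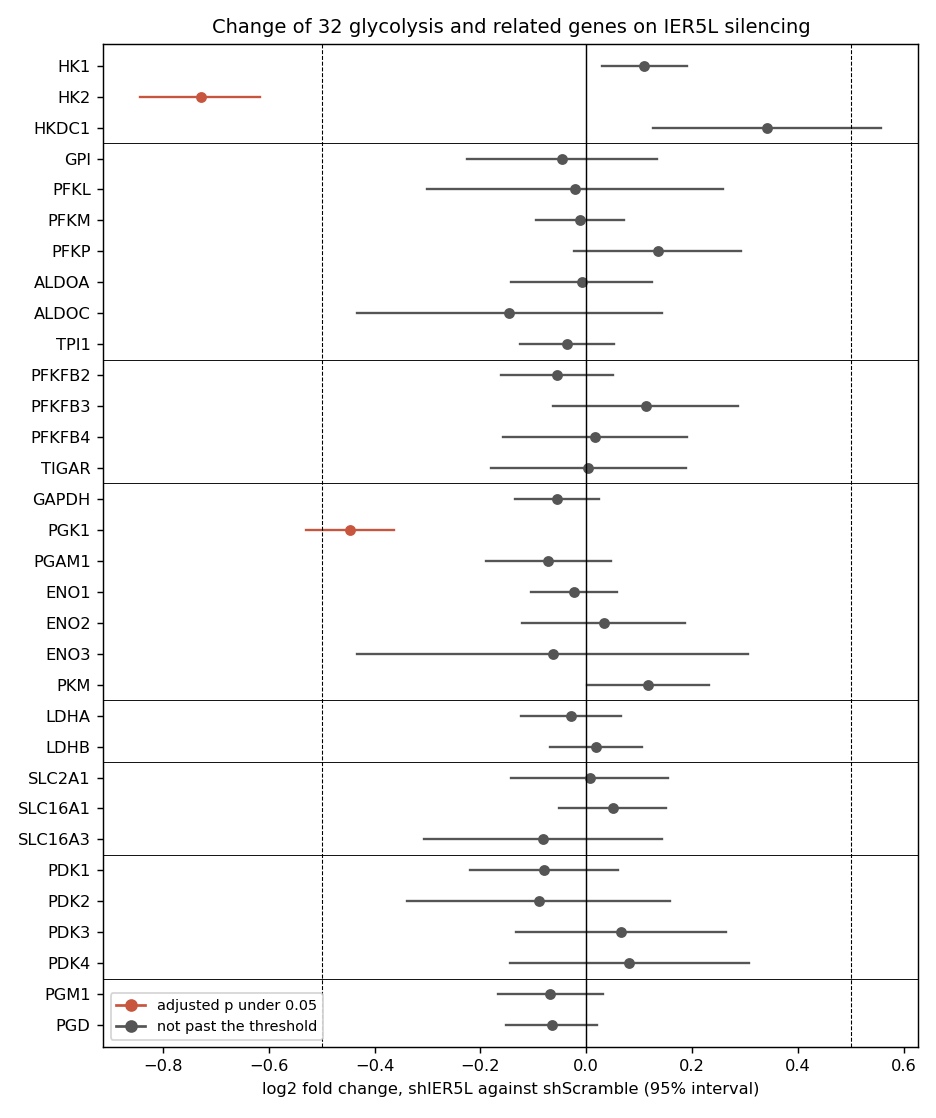
Log2 fold change of the 32 tested genes, shIER5L against shScramble, with 95% intervals, ordered by role. Dashed lines mark -0.5 and 0.5. Only HK2 lies beyond -0.5, PGK1 is the other gene past the adjusted threshold, and the intervals of the remaining 30 genes all lie above the upper bound of HK2 at -0.616.

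The 30 tested genes other than HK2 and PGK1 did not share a fall of the size of HK2. All 30 had a 95% interval that stayed above -0.5, and the lowest bound was -0.434, for ALDOC and ENO3. For 20 of the 30 the entire interval lay between -0.25 and 0.25, and 29 had a fold change within 0.15 of 0, HKDC1 being the exception. Smaller shifts lie within these intervals, whose median half-width was 0.144. Of the 32 genes, 19 were lower and 13 higher in shIER5L, with a median log2 fold change of -0.02, beside 0.00 for all genes tested. Reads of the 33 genes came to 1.56% ± 0.0198 of all reads counted on genes in shScramble and 1.47% ± 0.037 in shIER5L (SD, n = 4 each). These shares include HK2 and PGK1, and PGK1 alone went from a mean of 2125.3 CPM to 1560.4 CPM. They are therefore no measure of the other 30 genes.

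**Figure D4:**
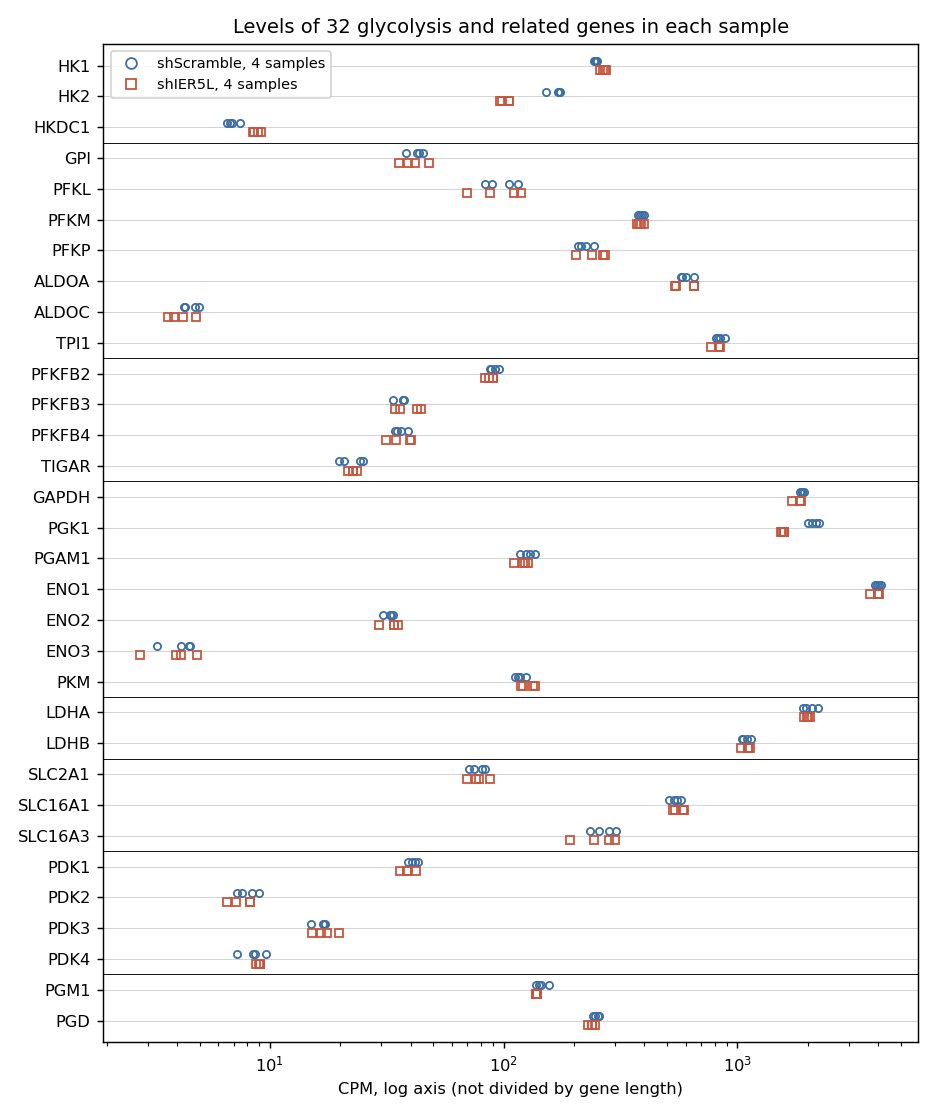
CPM (log axis, not divided by gene length) of 32 genes in each of the 4 shScramble samples (circles) and 4 shIER5L samples (squares), ordered by role. The conditions are apart for HK1, HK2, HKDC1 and PGK1 and overlap for the other 28 genes. SLC2A3, with 2 reads in all, is not drawn.

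The hairpin heptamer was also found in genes of the group that did not fall. CATCTCA lies in the longest 3' UTR of 5 of the 32 tested genes, 15.6%, and of 18.9% of the 12701 tested genes with such a UTR. Besides HK2 and PGK1 these are PFKFB2, TIGAR and PDK3, with 1 place each.
PFKFB2 chr1:207077130-207077150: ttgaagtCATCTCAtccagtc
TIGAR chr12:4357113-4357133: aacagtgCATCTCAcacccat
PDK3 chrX:24543289-24543309: tggcactCATCTCAtctttct
The log2 fold changes of these 3 were -0.06, 0.00 and 0.07. Their 3' UTRs are 5446, 7337 and 11302 bases long. In the annotation used for counting, the place in PFKFB2 lies inside the gene, and those in TIGAR and PDK3 lie past its end. Whether the counted transcripts hold these places was not tested, nor was any bearing of UTR length or place on the fold changes.

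Of the 5 tested genes of the group with CATCTCA, 2 were called lower. Of the 27 without it, none was called lower by the quasi-likelihood test, by DESeq2 or by limma voom, and none was lower at an unadjusted p under 0.05. Over all tested genes with a 3' UTR, 5.01% of those with CATCTCA and 1.02% of those without it were called lower. CATCTCA had been picked out from these same samples, so these counts and shares are a description and no independent evidence. They were not matched for UTR length. HKDC1 and ENO2 hold the other heptamer, ACATCTC, at 1 place each, with log2 fold changes of 0.34 and 0.03. With both heptamers, 7 of the 32 genes (21.9%) matched beside 24% of all, and in any annotated coding transcript 12 of the 32 (37.5%) matched beside 44.2%. The part of these matches in the falls of HK2 and PGK1 was not tested and, with the same hairpin in all silenced samples, cannot be told apart from the loss of IER5L.

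Further genes of carbohydrate use were taken from 9 lists with 146 genes, of which 123 were tested. 1 was called lower and 4 were called higher, 4.07% beside 3.93% of all genes, and no gene of these lists was a DEG. IDH3B, a subunit of isocitrate dehydrogenase in the citric acid cycle, was lower with a log2 fold change of -0.21 ± 0.0455 (SE, adjusted p = 0.0146). GPD2, the mitochondrial glycerol phosphate dehydrogenase that takes electrons from the cytosol, was higher by 0.21 ± 0.0455 (adjusted p = 0.0148). SLC2A13, a transporter of inositol, was higher by 0.38 ± 0.0787 (adjusted p = 0.0125). UGP2, which makes UDP-glucose for glycogen, was higher by 0.21 ± 0.0508 (adjusted p = 0.0291), and PHGDH, which opens the serine branch of glycolysis, was higher by 0.26 ± 0.0665 (adjusted p = 0.0373), with overlapping conditions. None of these 5 calls held in every leave-one-out fit, from the loss of 2 samples for SLC2A13 and IDH3B to 7 of the 8 samples for PHGDH.

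The counts of the lists stand beside 16.5% of all genes with an unadjusted p under 0.05 and, by DESeq2, 7.28% called. Such a p was found for 2 of 7 other glycolysis isozymes and 4 of 9 other sugar and lactate transporters. It was also found for 3 of 23 citric acid cycle enzymes and 5 of 15 gluconeogenesis and glycogen enzymes. Among genes of the hexosamine, polyol and serine branches, 5 of 14 had it. In this order, DESeq2 called 1, 1, 2, 1 and 3 genes of these lists. By direction, 4, 6, 14, 11 and 11 were higher and 3, 3, 9, 4 and 3 lower. Of 12 tested transcription factors that drive glycolytic genes, none was called by edgeR, DESeq2 or limma voom, and ARNT alone had an unadjusted p under 0.05. HIF1A, the hypoxia factor, had a log2 fold change of -0.07 ± 0.0385 (adjusted p = 0.416), and MYC -0.07 ± 0.094 (adjusted p = 0.773). Of 19 other targets of hypoxia and carbohydrate signalling, none was called by the quasi-likelihood test or limma voom, 1 was called by DESeq2, and 4 had an unadjusted p under 0.05. Of the 19 targets, 8 were lower and 11 higher, with a median log2 fold change of 0.03. CA9 had the lowest log2 fold change of that list and rested on 36 to 67 reads per sample. It was at 2.36, 2.71, 2.69 and 2.38 CPM in shScramble and 2.12, 1.85, 2 and 1.64 CPM in shIER5L (quasi-likelihood test, adjusted p = 0.235). None of the 10 pentose phosphate enzymes was called or had an unadjusted p under 0.05, DESeq2 and limma voom calling none as well. Among 14 genes of pyruvate dehydrogenase and pyruvate import, none was called by the quasi-likelihood test, 1 by DESeq2, and 1 had an unadjusted p under 0.05.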

How the data were processed

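The deposited file is a table of counts that the authors did not normalize, giving for each gene how many reads fell on it, in PC3 cells with shScramble (4 samples) or the sh2 IER5L hairpin (4 samples). Per the labels and the file header, STAR 2.7.5c aligned to hg38, SAMtools 1.15 removed duplicates, and featureCounts 2.0.3 assigned primary alignments to exons. No strand option was set, and mates were counted separately, so that 65.3% to 66.1% of counts from 1 to 20 were even. Removal of duplicates can lower strongly expressed genes, and a read with several places was counted at its primary place. The study names a ribosomal RNA depletion kit and the labels name a poly(A) kit. Total counts were 21512128 to 24662190 per sample.

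From these counts, filterByExpr kept 16959 of 58051 genes. After TMM scaling, edgeR 4.0.16 (R 4.3.3) was used for the quasi-likelihood test of the condition, with Benjamini-Hochberg adjustment over all genes tested. Identifiers matched a symbol for 56948 genes. Replicates had correlations of 0.9882 to 0.992 and no pair agreed within sampling noise. Ratios within samples used 0.5 added to each count and two-sided exact permutation tests (scipy 1.17.1, Python 3.11.15), adjusted over 8 pairs. A planned pair of SLC2A1 with SLC2A3 was left out since SLC2A3 had almost no reads. Heptamers were searched in the longest 3' UTR of at least 30 bases (GENCODE v44). On simulated counts for 16959 genes of this comparison, with 200 changed by 1 on the log2 scale, the test recovered 151 and called 16 unchanged genes. Alternatives used scaling by RLE, by the upper quartile or by totals alone, 2 other filters, DESeq2 1.42.0, limma 3.58.1 voom, the likelihood ratio test, glmTreat, a replicate block, halved counts and each sample left out. All 33 genes of the group are named, with those of the lists that had an adjusted p under 0.05, while HIF1A, MYC, ARNT and CA9 were chosen after their values were seen. The genes, lists and heptamers were chosen with earlier results of these data known. Some marker genes are not reported here.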

Additional observations from a re-analysis of the deposited data

Results flagged for a closer look

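Among 64 sets of 4 replicates (32 genes in 2 conditions), 5 had a sample far from the other 3, 7.81%, where chance gives about 1 in 20. In shIER5L replicate 3, TPI1 was at 771 CPM beside 833 to 839 CPM in the other shIER5L samples. In the same sample GAPDH was at 1719.7 CPM beside 1844.5 to 1863.9 CPM. ENO1 was also lowest there, at 3699.9 CPM beside 3992.6 to 4022.7 CPM. HK2 was at 105 CPM in that sample, within the range of the other shIER5L samples. In shScramble replicate 1, PFKFB3 was at 33.6 CPM beside 37.1 to 37.6 CPM in the other shScramble samples. PDK3 was at 15 CPM in that sample beside 16.8 to 17.2 CPM.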

How the results depend on the processing

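Of 640 fold changes of the 32 genes under 20 alternatives, 633 kept their direction and side of the threshold or moved by less than the replicate spread, and none with a call reversed. HK2 had log2 fold changes from -0.77 to -0.71 and PGK1 from -0.47 to -0.42, and both were called under every alternative but glmTreat, including each of the 8 fits with a sample left out, where the number of genes of the group called stayed at 2. With glmTreat at 0.5, 0 genes of the group were called (HK2 adjusted p = 0.14, log2 fold change -0.73) and 4 of all genes; edgeR's quasi-likelihood test gave 5 of the group at an unadjusted p under 0.05, and DESeq2 2 calls beside 947 among all genes. With the first component of the spread between replicates as a covariate, chosen after seeing the data, 5 genes of the group were called (HK1, HK2, HKDC1, PFKP and PGK1), 1893 of all genes and 207 DEGs. The likelihood ratio test called 3 of the group, 864 of all genes and 193 DEGs.

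Leaving out samples moved the calls among all genes from 666 to between 305 and 756, and DEGs from 134 to between 86 and 135; the call count was 341 without shScramble replicate 2, 305 without shScramble replicate 3, 434 without shScramble replicate 4 and 358 without shIER5L replicate 3, and DEGs were 86 without shScramble replicate 3. The ratio of HK2 to HK1 ranged from -0.88 to -0.82 and that of HK2 to GAPDH from -0.72 to -0.64 (log2 difference) with samples left out, where 3 against 4 samples allow no p under 0.0571. After the mean of its condition was subtracted from each gene on the log2 scale, same-numbered samples had correlations of -0.048, 0.098, -0.041 and 0.144. The numbers were therefore not taken to pair the samples. With a replicate block the ratios were -0.84 for HK2 to HK1 and -0.67 for HK2 to GAPDH, at the smallest p that a sign permutation of 4 pairs allows, 0.125, and the same 2 genes of the group, HK2 and PGK1, were called. The widest half-width of a 95% interval in the group other than HK2 and PGK1 was 0.37, for ENO3, at 67 to 111 reads per sample.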

Other observations

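Replicates of both conditions differed along a shared axis that held 24.8% of the variance left after the conditions. shScramble replicates 2 and 3 and shIER5L replicates 1 and 2 lay on one side of it, and the other 4 samples on the other side. PFKL was higher on the first side by 0.35 (log2) within shScramble and 0.56 within shIER5L, SLC16A3 by 0.26 and 0.42, PFKP by 0.15 and 0.28, and ALDOA by 0.11 and 0.26. HK2 differed by -0.12 and -0.01 between the same samples. The sides were set from these samples, so these are values with no test.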
